A study of Bos taurus with 9 samples.

Results

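The regions described here are the ChIP-seq peaks that start within the first 3 Mb of the 29 cattle autosomes, on the side of the centromere. Every peak on chromosomes 1 to 29 with a start from position 1 to 3000000 of the UMD3.1.1 assembly was taken, which gave 3749 of the 130580 peaks of the series. Cattle autosomes are acrocentric, so the low coordinates of each one are the assembled sequence nearest to its centromere. The tissue was rumen epithelium of Holstein calves, taken before or after weaning, and 1 library per target and time point was made with antibodies against H3K9ac, H3K27ac, H3K9me3 and RNA polymerase II, called RNA pol II here. A single input library, used as background for calling all peaks, carries no time point in its label, and the labels do not say how many calves were pooled or how old they were. Since each group was 1 library, no comparison below has a replicate check, and no test between before and after weaning was made. The intervals are 95% intervals, which cover only counting error and treat peaks as independent although neighbouring peaks are not.

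H3K9ac and H3K27ac are acetylated forms of histone H3 found at active promoters, and H3K27ac also marks active enhancers. RNA pol II transcribes protein-coding genes. H3K9me3 is a mark of constitutive heterochromatin, the compacted chromatin bound by heterochromatin protein HP1 that is a hallmark of pericentromeric satellite repeats. Satellite arrays themselves are mostly missing from assemblies of this kind, and only reads that aligned uniquely were kept for these lists, so the peaks below lie in the assembled sequence next to the arrays. No gene annotation of the assembly was used here, and regions are therefore named by position.

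Across the 8 lists, the first 3 Mb of the autosomes held 2.91% of the autosomal peaks on 3.47% of the autosomal length. The lists differed widely in length, from 738 peaks for RNA pol II after weaning to 74249 for H3K27ac before weaning. The H3K9me3 library from before weaning was sequenced in lane 2 and the one from after weaning in lane 1, so for H3K9me3 the lane and the weaning state cannot be told apart, while the 2 libraries of any other target came from the same lane. The lists hold no read numbers, those that the study tabulates were not used here, and the part of sequencing depth in the number of peaks was not tested. The study's text attributes its shortest RNA pol II list to the tissue before weaning, whereas the sample label puts that list after weaning, and the label was followed. If the label is wrong, the before and after peak numbers of RNA pol II below change places, and its contacts with the other marks, which were counted within a time point, no longer apply.

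H3K9me3 was the mark with the highest density near the centromere relative to the rest of the same autosomes, and the acetylated marks were sparser there. H3K9me3 had 131 peaks in the first 3 Mb before weaning, or 1.51 per Mb, against 0.904 per Mb in the rest, a ratio of 1.67 (1.39 to 1.99). After weaning it had 384 peaks, or 4.41 per Mb against 1.53 per Mb, a ratio of 2.88 (2.59 to 3.20). Both intervals lay above 1, and the H3K9me3 list from after weaning placed 9.38% of its autosomal peaks in this part of the genome. Autosome 14, chosen for separate description after its counts were seen, held 45 of the 131 and 147 of the 384 peaks. Without autosome 14 the ratio was 1.13 (0.901 to 1.40) before weaning, an interval that included 1, and 1.84 (1.60 to 2.09) after weaning. Without autosomes 14, 18 and 21 it was 0.838 before weaning and 1.61 after. In a window of 1 Mb, with all autosomes, it was 3.17 before weaning and 5.76 after.

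H3K27ac had 1938 peaks in the first 3 Mb before weaning and 849 after. These were 22.3 and 9.76 peaks per Mb against 29.4 and 12.1 per Mb in the rest, with ratios of 0.758 (0.724 to 0.793) and 0.805 (0.751 to 0.862). H3K9ac had 311 and 48 peaks, or 3.57 and 0.552 per Mb against 5.78 and 0.854 per Mb. Its ratios were 0.618 (0.551 to 0.692) before weaning and 0.646 (0.475 to 0.860) after. Both acetylated marks were therefore sparser near the centromere than in the rest of the autosomes at both time points, by more than the counting error. This was mostly not particular to the first 3 Mb. In the next 3 Mb window, H3K27ac stood at 21.8 per Mb before weaning and 8.51 after, and H3K9ac at 3.53 before. Only H3K9ac after weaning was higher there, at 0.816 per Mb. The median autosome lay lower than the pooled ratios, at 0.336 and 0.332 for H3K9ac and at 0.411 and 0.327 for H3K27ac. In a window of 1 Mb the ratio of H3K9ac after weaning was 0.939, from 0.793 peaks per Mb (0.503 to 1.19), so the lower density of this list was not detectable closest to the centromere.

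RNA pol II had 51 peaks in the first 3 Mb before weaning, at 0.586 per Mb against 0.819 per Mb in the rest, a ratio of 0.716 (0.531 to 0.945). After weaning it had 37 peaks at 0.425 per Mb against 0.283 per Mb, a ratio of 1.50 (1.05 to 2.09). This excess rested on 1 chromosome, since 23 of the 37 peaks were on autosome 14 and the ratio without it was 0.586 (0.319 to 0.990). Among peaks wider than the median of the mark the ratio was 0.825, and in a window of 1 Mb it was 3.57. The rest contains a dense cluster on autosome 17 at 50 to 52 Mb with 127 RNA pol II peaks before weaning and 192 after. Without that cluster the ratios were 0.764 (0.567 to 1.01) before weaning, an interval that included 1, and 2.08 (1.45 to 2.91) after. After weaning, autosomes 14, 18 and 21 together held all but 3 of these 37 peaks. The excess was not particular to the first 3 Mb, since the 3 Mb windows that followed stood at 0.724, 0.816 and 0.356 per Mb after weaning. Between 5 and 8 Mb there were 94 RNA pol II peaks after weaning, 37 of them on autosome 9 and 29 on autosome 6.

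**Figure D1:**
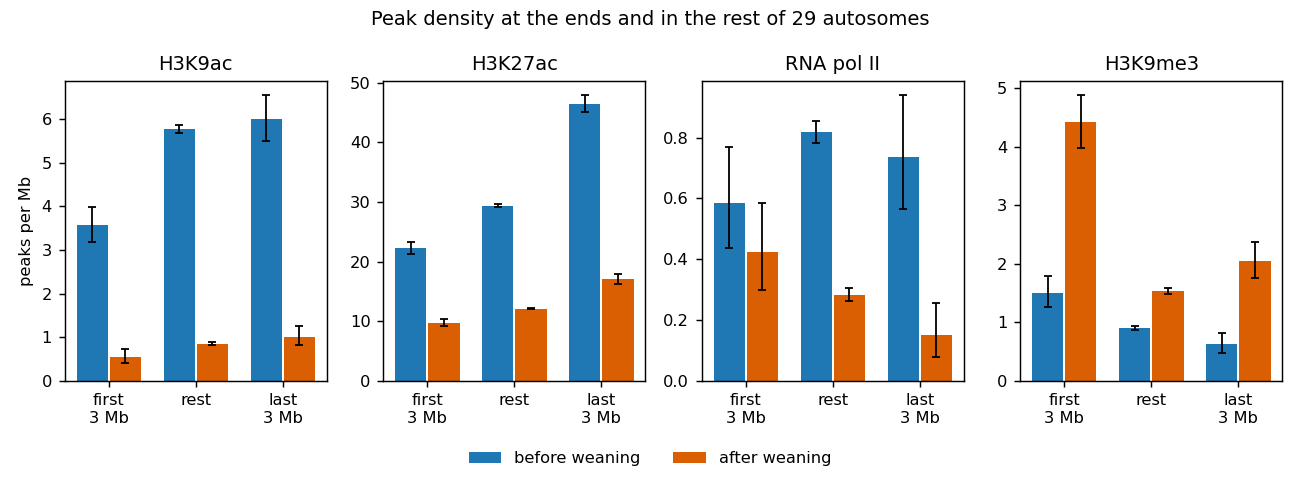
Peaks per Mb (vertical axis, from 0, a separate scale in each panel) in the first 3 Mb, in the rest and in the last 3 Mb of the 29 autosomes, where the rest is everything beyond the first 3 Mb and so contains the last 3 Mb. Bars are 1 library each, blue before and orange after weaning, and error bars are 95% Poisson intervals; H3K9me3 after weaning stood at 4.41 per Mb in the first 3 Mb against 1.53 in the rest, while both acetylated marks were lower in the first 3 Mb than in the rest.

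The other end of the autosomes differed from the centromere side for most lists. In the last 3 Mb, H3K27ac had 46.4 peaks per Mb before weaning and 17.02 after, against 22.3 and 9.76 in the first 3 Mb. The interval before weaning ran from 45.0 to 47.9 per Mb at the far end and from 21.3 to 23.3 at the centromere side. H3K9me3 showed the opposite order, with 0.621 per Mb before weaning and 2.05 after in the last 3 Mb, against 1.51 and 4.41 at the centromere side. Taken over the autosomes without either end, the density ratios of the last 3 Mb were 1.61 and 1.43 for H3K27ac and 0.679 and 1.35 for H3K9me3.

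The pooled densities hid a wide spread between autosomes. The first 3 Mb was denser than the rest of the same autosome in H3K9me3 on 16 of 29 autosomes before weaning and on 21 of 29 after. Over all 3 Mb windows of the autosomes, 28.8% before and 31.7% after weaning were denser in H3K9me3 than the rest of their autosome. A density of H3K9me3 at least 2-fold that of the rest was reached on 11 autosomes before and 13 after weaning, against 14.9% and 11.1% of all windows. For H3K27ac the first 3 Mb was the denser part on 7 autosomes (24.1%) before weaning, beside 41.1% of all windows. After weaning it was the denser part on 11 (37.9%), beside 39% of all windows. For H3K9ac it was 8 autosomes at each time point, beside 38.9% and 37.5% of all windows. For RNA pol II it was 10 autosomes before weaning, beside 35.7% of all windows, and 4 after, beside 16.1% of the windows on the autosomes that had any such peak. The share of first windows denser in H3K9me3 after weaning was 72.4% and stood well above its background of all windows. The shares for RNA pol II, 34.5% and 14.8%, and for H3K27ac after weaning were close to theirs.

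A few autosomes carried most of the acetylation. Of the 1938 H3K27ac peaks before weaning, 1337 (69.0%) were on the 8 autosomes with more than 100 of them. Autosome 25 led with 301 peaks before and 123 after weaning, and it also held 51 of the 311 H3K9ac peaks before weaning but only 1 of the 48 after. Autosome 11 had 197 and 85 H3K27ac peaks, autosome 14 had 173 and 85, and autosome 16 had 166 and 73. At the other extreme, autosomes 4 and 19 had no H3K9ac, H3K27ac or RNA pol II peak in their first 3 Mb at either time point. H3K9me3 was found on both, with 0 and 6 peaks on autosome 4 and 1 and 6 on autosome 19, before and after weaning respectively. The median autosome had 34 H3K27ac peaks before weaning and 10 after, and 2 and 6 H3K9me3 peaks.

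**Figure D2:**
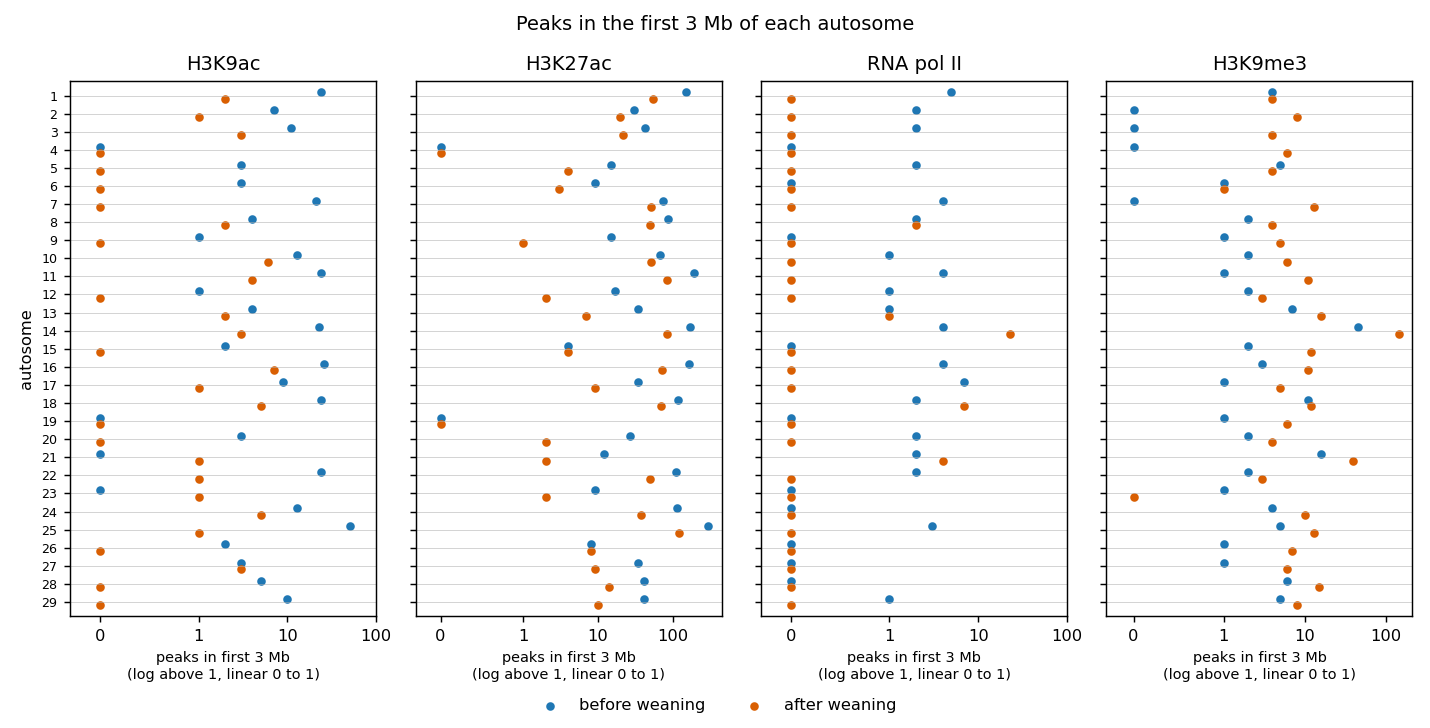
Number of peaks in the first 3 Mb of each autosome (horizontal axis, logarithmic above 1 and linear from 0 to 1) for the 29 autosomes (vertical axis), with 1 panel per mark and blue points before and orange points after weaning. Autosome 14 stood apart with 45 and 147 H3K9me3 peaks and 23 RNA pol II peaks after weaning, and 25 autosomes had more H3K9me3 peaks after weaning than before.

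The number of H3K9me3 peaks near the centromere was higher in the library from after weaning than in the one from before. The ratio of after to before was 2.93 (2.40 to 3.60) in the first 3 Mb against 1.69 (1.61 to 1.79) in the rest of the autosomes. More peaks after weaning were listed on 25 autosomes, fewer on autosomes 5 and 23, and the same number on autosomes 1 and 6. Autosome 14 went from 45 to 147 peaks, autosome 21 from 16 to 40, autosome 13 from 7 to 16 and autosome 28 from 6 to 15, while autosome 18 had 11 and 12. Autosomes 2, 3, 4 and 7 had none before weaning, and 8, 4, 6 and 13 after. Of the 26 first windows with at least 5 H3K9me3 peaks in both lists together, 20 had at least 2-fold more after weaning, against 50.7% of all 3 Mb windows that could be tested this way. The last 3 Mb had a ratio of 3.30 (2.42 to 4.56), so a ratio above that of the rest was not particular to the centromere side.

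For the acetylated marks, the ratio of peak numbers after to before weaning in the first 3 Mb was close to that in the rest. H3K27ac had 0.438 times as many peaks after weaning (0.404 to 0.475), against 0.412 times in the rest, and it had fewer on 25 autosomes and the same number on 4. At least 2-fold fewer peaks after weaning were listed in 19 of 27 first windows, against 74.6% of all windows. H3K9ac had 0.154 times as many (0.111 to 0.210) against 0.148 in the rest, with at least 2-fold fewer in 17 of 18 first windows, against 96.1% of all. For neither acetylated mark did the first 3 Mb differ from the rest by more than the counting error. RNA pol II had 0.725 times as many peaks after weaning (0.462 to 1.13) against 0.346 (0.317 to 0.378) in the rest. Without autosome 14 that ratio was 0.298, so the higher value came from the peaks of that chromosome. In a window of 1 Mb the ratio was 1.38 for RNA pol II and 0.277 for H3K9ac. Only 5 first windows had enough RNA pol II peaks to be compared, of which 3 had at least 2-fold more after weaning, against 5.26% of all windows, and 2 had at least 2-fold fewer, against 70.4%.

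Within the 3 Mb, the pooled H3K9me3 peaks were densest at the very end of the assembled sequence, though not on every autosome. The first 0.5 Mb held 48 of the 131 peaks before weaning, or 36.6% (28.9 to 45.2), and 170 of the 384 after, or 44.3% (39.4 to 49.3), where an even spread would place 16.7%. H3K27ac had the opposite profile, with 8.82% (7.64 to 10.2) of its peaks in the first 0.5 Mb before weaning and 7.54% (5.95 to 9.51) after. The H3K9me3 share after weaning did not rest on autosome 14, since 106 of 237 peaks (44.7%) lay in the first 0.5 Mb on the other autosomes. More than 50% of an autosome's H3K9me3 peaks after weaning were in its first 0.5 Mb on 15 of the 28 autosomes that had any. In steps of 1 Mb, H3K9me3 after weaning stood at 8.90, 2.48 and 1.86 peaks per Mb, and at 1.62 per Mb in the step just beyond the 3 Mb limit. Before weaning the corresponding densities were 2.86, 0.966, 0.690 and 1.41 per Mb.

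**Figure D3:**
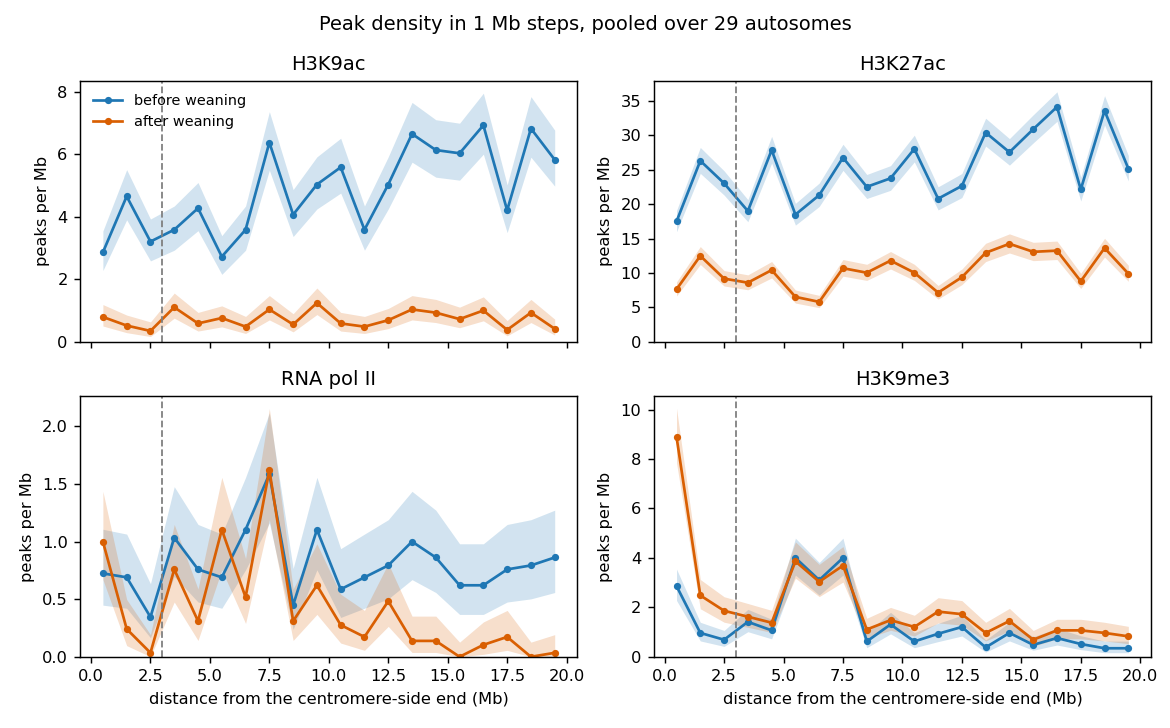
Peaks per Mb (vertical axis, from 0) in steps of 1 Mb from the centromere-side end (horizontal axis, Mb), pooled over the 29 autosomes, 1 panel per mark. Blue is before and orange after weaning, shading is the 95% Poisson interval and the dashed line is the 3 Mb limit; H3K9me3 after weaning began at 8.90 per Mb and was 2.48 per Mb in the next step.

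From 3 to 5 Mb, H3K9me3 after weaning stood at 1.62 and 1.38 peaks per Mb, near the 1.53 per Mb of the rest. Farther in, between 5 and 8 Mb, there were 322 H3K9me3 peaks before weaning and 307 after, more than in the first 3 Mb before weaning and fewer than in the first 3 Mb after. Many of these were on other chromosomes than those that led in the first 3 Mb, with 131 and 104 peaks on autosome 6 and 65 and 61 on autosome 9. In the first 3 Mb, by contrast, autosome 6 had 1 H3K9me3 peak at each time point and autosome 9 had 1 and 5. The dense cluster on autosome 17 in the rest of the autosomes held 395 and 435 H3K9me3 peaks. When it was left out of the rest, the H3K9me3 ratios were 2.03 (1.69 to 2.43) before and 3.26 (2.93 to 3.63) after weaning.

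H3K9me3 was the only mark with a peak in the first 10 kb of any autosome. After weaning, 31 H3K9me3 peaks on 14 autosomes started there, which is 107 per Mb (72.6 to 152), and before weaning 9 peaks on 8 autosomes did, which is 31.0 per Mb (14.2 to 58.9). The other 6 lists had 0 peaks in these stretches, which together measure 0.29 Mb, and a count of 0 allows up to 3 peaks, or 10.3 per Mb, while its Poisson interval reaches 12.7 per Mb. The 29.4 per Mb of H3K27ac before weaning in the rest lies above both limits. The 12.1 per Mb of H3K27ac after weaning lies below the second, and the densities of H3K9ac and RNA pol II in the rest lie below both, so that for these lists a lack of peaks was not detectable. Autosome 15 had 7 of the 31 peaks, autosome 14 had 5 and autosome 16 had 3. Of the 9 peaks from before weaning, 5 touched a peak from after weaning.

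The peak nearest to the centromere-side end was H3K9me3 on 22 of the 29 autosomes, from the list after weaning on 16 and from the list before weaning on 6. It was H3K27ac on the remaining 7. On 15 autosomes this first peak lay within 10 kb of the end. The closest was an H3K9me3 peak at chr18:1-292, which begins with the first base of the sequence, followed by peaks at chr17:13-265 and chr11:31-240. The farthest first peak was at chr6:764946-765182.

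Autosome 14 was divided into a part with H3K9me3 and a part with most of its H3K27ac. Over its first 1.5 Mb it had 45 H3K9me3 peaks before weaning and 147 after. The density of 98.0 per Mb after weaning compared with 1.36 per Mb on the same autosome beyond the first 3 Mb. The limit of 1.5 Mb was not planned and lies just beyond the last H3K9me3 peak, which raises this density. Over the planned 3 Mb it was 49.0 per Mb. From 1.5 to 3 Mb it had 0 H3K9me3 peaks at both time points. H3K27ac was distributed the other way, with 5 and 3 peaks in the first 1.5 Mb and 168 and 82 from 1.5 to 3 Mb. The last H3K9me3 peak ended at position 1466402, and 252 of the 258 H3K27ac peaks of both lists started beyond it, the first of them at 1486136. H3K9ac before weaning had 1 peak on the H3K9me3 side and 22 on the other, whereas its few peaks after weaning had the opposite placing, with 3 on the H3K9me3 side and 0 on the other. RNA pol II after weaning lay entirely on the H3K9me3 side, with 23 peaks in the first 1.5 Mb and 0 from there to 3 Mb, while before weaning it had 2 on each side.

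**Figure D4:**
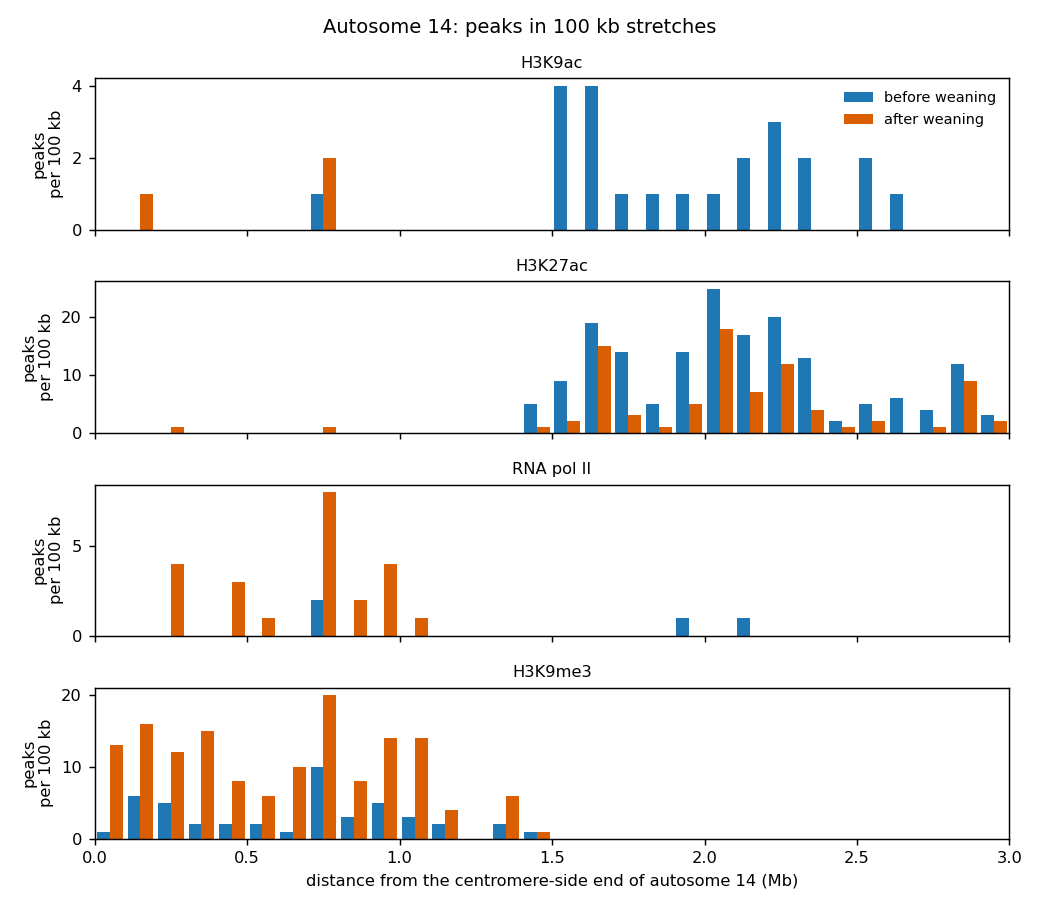
Peaks per 100 kb (vertical axis, from 0, a separate scale in each panel) over the first 3 Mb of autosome 14 (horizontal axis, distance from the centromere-side end in Mb), blue before and orange after weaning. H3K9me3 stopped before 1.5 Mb, and all but a few H3K27ac peaks lay beyond the last H3K9me3 peak, while the RNA pol II peaks from after weaning all lay in the H3K9me3 part.

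Autosomes 18 and 21 also combined H3K9me3 with RNA pol II, with a different layout. On autosome 18, H3K9me3 peaks were found in the first 1 Mb, 9 before and 12 after weaning, with only 2 more from before weaning at 2.5 to 3 Mb. H3K27ac on this chromosome began beyond 1 Mb, with 120 peaks before and 69 after weaning, of which 1 from after weaning was in the first 1 Mb. On autosome 21, H3K9me3 was mainly found from 1 to 2.5 Mb, and H3K27ac was sparse throughout with 12 and 2 peaks. Autosome 28 had its 6 and 15 H3K9me3 peaks only from 2 to 3 Mb, and autosome 25 had 9 of its 13 peaks after weaning from 2.5 to 3 Mb, so the H3K9me3 of the first 3 Mb was not always at the end of the sequence.

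At the scale of 100 kb, H3K9me3 came in clusters. Of the 870 stretches of 100 kb in the first 3 Mb, 74 had an H3K9me3 peak before weaning and 113 after. After weaning, 30 stretches with at least 5 H3K9me3 peaks each held 253 of the 384 peaks, and 12 of these stretches with 142 peaks were on autosome 14. The remaining 18 were spread over 14 other autosomes, with at most 3 on any of them. Those 30 stretches contained only 10 H3K27ac peaks but 32 of the 37 RNA pol II peaks. Before weaning there were 5 such stretches with 32 H3K9me3 peaks, 0 H3K27ac peaks and 4 RNA pol II peaks. H3K27ac was found in 23.0% of the stretches with H3K9me3 before weaning and in 36.8% of those without, and in 27.4% and 28.7% after.

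The richest 100 kb stretch was a different one for acetylation and for H3K9me3. For H3K9ac and H3K27ac it was positions 1000001 to 1100000 of autosome 22, with 8 H3K9ac and 44 H3K27ac peaks before weaning and 1 and 18 after, and with no RNA pol II or H3K9me3 peak. For RNA pol II and H3K9me3 it was positions 700001 to 800000 of autosome 14. That stretch had 10 H3K9me3 peaks before weaning and 20 after, and 2 and 8 RNA pol II peaks.

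Most RNA pol II peaks of the first 3 Mb touched H3K27ac before weaning and H3K9me3 after weaning, and they were spread over 19 autosomes before weaning and 5 after. Before weaning 36 of the 51 peaks (70.6%) touched an H3K27ac peak by at least 1 bp, 15 (29.4%, 18.7 to 43.0) an H3K9ac peak and 9 (17.6%) an H3K9me3 peak. In the rest of the autosomes H3K9ac was touched by 49.5% (47.3 to 51.7), above the interval near the centromere. H3K27ac was touched by 76.8% there and H3K9me3 by 21.5%. Both lay within the intervals of the first 3 Mb before weaning (57.0 to 81.3 and 9.57 to 30.3). After weaning 29 of the 37 peaks (78.4%, 62.8 to 88.6) touched H3K9me3, 6 (16.2%, 7.65 to 31.1) touched H3K9ac and 5 (13.5%, 5.91 to 27.98) touched H3K27ac. In the rest H3K9ac was touched by 38.9% (35.3 to 42.6) and H3K27ac by 32.9% (29.5 to 36.5), above both intervals of the first 3 Mb. Autosome 14 held 23 of the 37 peaks, while the contacts with H3K9ac lay on autosomes 8, 13, 14, 18 and 21. The shares for H3K9ac and H3K27ac were not recomputed without autosome 14, so these differences may depend on it. The corresponding share for H3K9me3 in the rest was 87.03% (84.3 to 89.3), so this contact was not particular to the centromere side. On autosome 14 it was 19 of 23 peaks, on autosome 18 it was 5 of 7, on autosome 21 it was 3 of 4, and elsewhere 2 of 3. Before weaning, contact with H3K9me3 was already seen for 2 of 4 peaks on autosome 14, 2 of 2 on autosome 18 and 2 of 2 on autosome 21, while on the other autosomes, which held most peaks of that list, it was 3 of 43.

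Seen from the H3K9me3 side, a smaller share touched active marks near the centromere than elsewhere. Of the H3K9me3 peaks of the first 3 Mb, 6.87% (3.66 to 12.5) touched RNA pol II before weaning and 7.29% (5.09 to 10.3) after, against 18.1% (16.5 to 19.8) and 14.7% (13.6 to 15.9) in the rest. After weaning this contact was concentrated on autosomes 14, 18 and 21, with 18 of 147, 5 of 12 and 3 of 40 H3K9me3 peaks, and on all other autosomes it was 2 of 185 (1.08%). Contact with H3K27ac was 0.763% (0.135 to 4.20) before and 1.56% (0.718 to 3.37) after weaning, against 2.42% (1.86 to 3.15) and 5.99% (5.27 to 6.80), so that the intervals overlapped before weaning only. Without the cluster of autosome 17, the shares of the rest that touched RNA pol II were 15.6% (13.9 to 17.3) and 11.7% (10.6 to 12.8). The median distance from an H3K9me3 peak to the nearest H3K27ac peak of the same time point was 375 kb before and 181 kb after weaning in the first 3 Mb, against 50.9 and 47.1 kb in the rest. Autosome 14 held 45 of the 131 and 147 of the 384 H3K9me3 peaks, and the distances were not recomputed without it. H3K9ac and H3K27ac were related as elsewhere: 91.6% of the H3K9ac peaks before weaning and 75.0% after touched H3K27ac. In the rest the shares were between 89.5% and 90.5% (95% interval) before weaning and 69.2% after.

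Among the active marks, the share of peaks found at both time points in the first 3 Mb differed little from that in the rest, apart from RNA pol II after weaning. Of the H3K27ac peaks from after weaning, 672 of 849 (79.2%, 76.3 to 81.8) touched one from before, and the other 177 did not, beside 23.1% of all autosomal peaks. Of those from before weaning, 31.5% (29.5 to 33.6) were still listed after, an interval slightly above the 27.96% of the rest, and 68.5% were not, beside 71.9% of all autosomal peaks. When an overlap of at least 50% of both peaks was asked for, 17.1% of those from before and 39.1% of those from after weaning had a counterpart. For H3K9ac, 19 of 311 peaks from before weaning were found after, and 292 were not (93.9%, beside 93.4% of all). Of the 48 H3K9ac peaks from after weaning, 18 touched one from before and 30 did not, beside 55.7% of all.

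Few RNA pol II peaks of the first 3 Mb were listed at both time points. Of the 37 from after weaning, 7 (18.9%, 9.48 to 34.2) touched one from before, against 54.2% (50.5 to 57.9) in the rest, and 30 did not, beside 47.6% of all. Without autosome 14 the share in the first 3 Mb was 35.7%, so this low value depended on that chromosome, and in a window of 5 Mb it was 41.2%. Without the cluster of autosome 17 the share in the rest was 53.2% (48.8 to 57.6). Of the 51 from before weaning, 7 were found after and 44 were not, beside 81% of all. In a window of 5 Mb the share found again was 29.1% in place of 13.7%. The 5 widest shared peaks before weaning were at chr18:661249-661701, chr8:938685-939120, chr18:665023-665324, chr21:1479247-1479524 and chr13:1368089-1368324. Each of these 5 lay in a merged region with H3K9me3 peaks at both time points.

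H3K9me3 peaks from before weaning were found again after in 73 of 131 cases (55.7%, 47.2 to 63.9), close to the 54.5% of the rest, which was 47.6% (45.3 to 49.9) without the cluster of autosome 17. Without a counterpart were 58, beside 45.5% of all autosomal peaks. On autosome 14 it was 37 of 45 peaks, while outside autosomes 14, 18 and 21 it was 21 of 59. Of the 384 peaks from after weaning, 73 (19.0%, 15.4 to 23.2) touched one from before, against 31.1% (29.7 to 32.6) in the rest. The other 311 were seen only after weaning (81.0%, beside 70% of all autosomal H3K9me3 peaks). Without the cluster of autosome 17 the share of the rest that touched a peak from before weaning was 25.1% (23.6 to 26.6), so the interval of the first 3 Mb still lay below it. In the last 3 Mb this share was 10.7% (6.94 to 16.1), so a low share was not particular to the centromere side. The share also depends on the number of peaks before weaning, 131 against 384 after in the first 3 Mb and 2189 against 3708 in the rest.

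**Figure D5:**
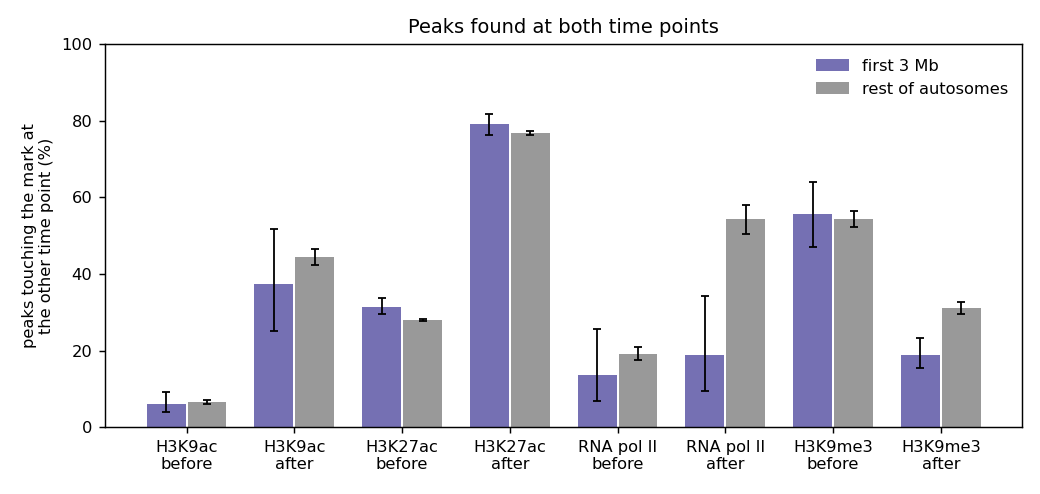
Share of peaks (vertical axis, percent) that touched a peak of the same mark at the other time point, for the 8 lists, in the first 3 Mb (purple) and in the rest of the autosomes (grey), with 95% Wilson intervals. The intervals did not overlap for RNA pol II after weaning (18.9% against 54.2%) and H3K9me3 after weaning (19.0% against 31.1%), both lower in the first 3 Mb, and for H3K27ac before weaning (31.5% against 27.96%), which was higher there.

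The acetylated peaks of the first 3 Mb had median widths near those of the rest, while RNA pol II after weaning and H3K9me3 before weaning had lower medians there. Median widths were 350.5 bp for H3K27ac before weaning and 289 bp after, against 343 and 290 bp in the rest, and 262 and 243.5 bp for H3K9ac, against 266 and 244 bp. H3K9me3 peaks had medians of 252 and 252.5 bp, against 278 and 246 bp. After weaning, the RNA pol II peaks had a median of 250 bp against 314 bp in the rest, and before weaning 272 bp in both. The widest peak was an H3K27ac peak before weaning of 2689 bp at chr16:872923-875611, and the widest after weaning was H3K27ac of 1618 bp at chr16:1970965-1972582. The widest H3K9me3 peaks were at chr14:919781-920479 before weaning (699 bp) and at chr27:905789-906908 after (1120 bp). The widest RNA pol II peak before weaning, at chr11:140865-141454, was 590 bp. For H3K9ac it was chr1:1495362-1496097 before weaning (736 bp).

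When touching peaks of all 8 lists were merged, the first 3 Mb had 2582 regions. Of these, 1804 (69.9%) were found in 1 library only, close to 70.3% of the 83151 regions of the rest. H3K27ac alone made up 1807 regions, or 70.0% (68.2 to 71.7), against 78.2% (78.0 to 78.5) in the rest. H3K9me3 alone made up 406 regions, or 15.7% (14.4 to 17.2), against 4.71% (4.57 to 4.85). Of the 441 regions with H3K9me3, 35 (7.94%) also held an active mark, against 695 of 4610 (15.1%) in the rest. Regions with all 4 marks were as rare as elsewhere, with 5 (0.194%) against 169 (0.203%). No region of the first 3 Mb held peaks of all 8 libraries, against 29 (0.0349%) in the rest, a share too small for a difference to be seen among 2582 regions.

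The merged regions shared by most libraries were of 2 kinds. The first kind combined H3K9me3 at both time points with RNA pol II at both time points. At chr13:1367935-1368451 a peak was listed in 7 libraries, all but H3K27ac after weaning, and at chr14:727040-727540 in 7, all but H3K27ac before weaning. At the former, the peaks of the active marks were 214 to 236 bp wide and all ended at position 1368324, inside H3K9me3 peaks of 427 and 517 bp. Regions at chr8:938557-939290, chr21:1479083-1479636 and chr18:661249-661701 held peaks of 6 libraries each. In each of these 3, H3K9ac and H3K27ac were listed only after weaning. The region at chr14:725718-726145, close to the one of 7 libraries, had H3K9ac after weaning with RNA pol II and H3K9me3 at both time points. The region at chr8:938557-939290 contained the widest RNA pol II peak after weaning (549 bp) and the widest H3K9ac peak after weaning (431 bp) of the first 3 Mb.

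The second kind held active marks without H3K9me3. The regions at chr16:1970212-1972628, chr17:488982-490174 and chr2:1834650-1835731 each had H3K9ac and H3K27ac at both time points and RNA pol II before weaning. In all 3 the H3K27ac peak was wider before weaning. On autosome 16 it spanned 2388 bp before and 1618 bp after, on autosome 17 it was 1147 bp before and peaks of 540 and 241 bp after, and on autosome 2 it was 1058 bp before and 515 bp after. The region at chr16:872923-875611 had H3K9ac and RNA pol II only before weaning, and in place of its H3K27ac peak of 2689 bp before weaning it had separate H3K27ac peaks of 211, 200, 336 and 215 bp after.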

How the data were processed

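The authors sequenced 75-nt reads, trimmed them with Trim Galore 0.4.1, aligned them to UMD3.1.1 with BWA, kept unique alignments with fewer than 2 mismatches and called peaks with MACS2 against the input (tools and version from the submitters' processing notes, the rest from the study's methods). The 8 deposited lists hold peak positions (chromosome, start and end, in bp) and no height, score, p-value or read count, so peak strength could not be compared, and read numbers tabulated by the study were not used here. Starts were used as deposited, counted from 1. Autosome lengths were set to the highest peak end in any list. Peaks were assigned by start, peaks sharing at least 1 bp touched, and density intervals were exact Poisson, ratios exact conditional binomial and shares Wilson, all at 95%. Windows of 3 Mb were compared with the rest of their autosome, and time ratios used windows with at least 5 peaks. Python 3.11.15, numpy 2.4.6, pandas 2.3.3 and scipy 1.17.1 were used, and the code was tested on simulated data. Regions were named by rule: the widest peak of each list, up to 10 merged regions with most libraries, the densest 100 kb stretch per mark and up to 5 shared RNA pol II peaks. Autosomes singled out otherwise were chosen after their values were seen. The regions, lists and choices were made with earlier results of these data known. The input library was not analysed here, and gene names and sequences were not used because the reference table was of another assembly.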

Additional observations from a re-analysis of the deposited data

Results flagged for a closer look

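The X chromosome, which is not among the autosomes compared above, had 11 H3K27ac peaks in its first 3 Mb before weaning, above the 3 that a count of 0 allows. This was 3.67 peaks per Mb (1.83 to 6.56), below the 7.45 per Mb of the rest of the X chromosome, and is not an excess. After weaning it had 2 peaks, or 0.667 per Mb (0.0807 to 2.41) against 1.56 per Mb, and the other 6 lists had 0 there.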

How the results depend on the processing

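Density ratios, numbers of denser autosomes, ratios of after to before weaning and shares found at the other time point were recomputed with other windows, with peaks within 1 kb merged, with only peaks wider than the median of their mark, and without the autosome with the most peaks of the list. The share of RNA pol II touching H3K9me3 and the position and width of H3K9me3 peaks were recomputed under fewer settings, and the other results, among them the first 10 kb, the 100 kb stretches and the merged regions, were not recomputed. Of 218 recomputed values, 155 stayed within the 95% interval of the reported value (for counts of autosomes, within 1.5 times), 57 lay outside it, and 6 were density ratios that crossed to the other side of 1 although the interval of the reported value excluded 1. The cause of these shifts was not tested, other than where autosomes were left out. Leaving out autosomes 14, 18 and 21 and the cluster of autosome 17 was chosen after seeing the data. No paired analysis was possible because each group was 1 library and the labels give no replicate numbers.

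The density ratio of RNA pol II after weaning changed direction, from 1.50 to 0.586 without autosome 14, which was also the autosome with the most peaks, to 0.131 without autosomes 14, 18 and 21, to 0.825 among wide peaks and to 0 as the median over autosomes. That of H3K9me3 before weaning fell to 0.838 without autosomes 14, 18 and 21. In a window of 1 Mb the ratios were 0.499 and 0.939 for H3K9ac, 0.597 and 0.630 for H3K27ac and 3.17 and 5.76 for H3K9me3, before and after weaning, and 3.57 for RNA pol II after weaning. In a window of 5 Mb the ratio of H3K9me3 after weaning was 2.12. Without the autosome with the most peaks they were 0.541 for H3K9ac before weaning, 0.670 and 0.721 for H3K27ac, and 1.13 and 1.84 for H3K9me3, for which this was autosome 14. As medians over autosomes they were 0.336 and 0.332 for H3K9ac, 0.411 and 0.327 for H3K27ac and 1.24 and 1.87 for H3K9me3. Without autosome 14 those of H3K27ac were 0.708 and 0.741, and without autosomes 14, 18 and 21 they were 0.719 and 0.742, with 1.61 for H3K9me3 after weaning. For H3K9me3, merging gave 2.27 before weaning, covered length gave 1.24 and 2.40, and a rest without the cluster of autosome 17 gave 2.03 and 3.26. The number of autosomes denser in the first window moved only for H3K9ac before weaning, to 5 with 1 Mb.

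The ratio of after to before weaning was 0.277 for H3K9ac and 1.38 for RNA pol II with 1 Mb, 2.32 for H3K9me3 with 5 Mb, 0.110 for H3K9ac and 0.311 for H3K27ac among wide peaks, and 0.560 for H3K27ac after merging. The value of 1.38 lies on the other side of 1 from the reported 0.725, whose interval included 1. For RNA pol II the ratio was 0.298 without autosome 14, the autosome with the most peaks, and 0.0698 without autosomes 14, 18 and 21.

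The share found at the other time point was 9.64% for H3K9ac before weaning with 1 Mb. For H3K27ac before weaning it was 42.5% after merging and 24.9% among wide peaks. With 5 Mb it was 29.1% and 41.2% for RNA pol II and 25.5% for H3K9me3 after weaning. Without the autosome with the most peaks it was 35.7% for RNA pol II after weaning and 41.9% and 14.8% for H3K9me3. With a reciprocal overlap of 50% it was 17.1% and 39.1% for H3K27ac and 43.5% and 14.8% for H3K9me3. The share of RNA pol II peaks after weaning that touched H3K9me3 was 62.2% with that overlap and 100% among wide peaks. The median width of H3K9me3 peaks after weaning was 243 bp without autosome 14.

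The lists hold positions only, and neither read depth nor peak strength was compared. Without replicates, differences between time points include differences between calves, libraries and, for H3K9me3, lanes. The assembled length was taken up to the last peak of each autosome.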
